A study of Mus musculus with 3 samples.

Results

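The blood neutrophils described here were 229 of the 2184 cells of the blood library that passed the filter on cells, or 10.5% (exact binomial 95% interval 9.23 to 11.8), out of 2241 deposited blood barcodes and 9725 barcodes in all 3 libraries of the series. They were chosen by their counts: at least 200 detected genes, at most 20% mitochondrial unique molecular identifiers (UMIs), at least 5% of UMIs from *S100a8* and *S100a9* together, at least 1 UMI of *Csf3r*, no UMI of *Csf1r*, and at most 1 UMI of *Cd3d*, *Cd3e*, and *Cd79a* together. Mice were 10 weeks old, male, and of the C57BL/6J strain per the study's methods, and had received a burn to the back together with a full tenotomy of the Achilles tendon 3 days before, which leads to bone forming in the injured tendon. No library came from uninjured mice. From blood, mononucleated cells were taken off a Ficoll gradient and red cells were lysed. Marrow was flushed from the femurs and lysed in the same way, and enzymes released the cells of the tendon injury site. Each tissue gave 1 library, and how many mice went into one is not given. Tissue, preparation, and library therefore cannot be told apart, no test was made, and no p-value is given. All intervals are 95% intervals that cover counting error only.

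Neutrophils are made in the marrow, where they fill successive kinds of granules as they mature: azurophil granules first, then specific and gelatinase granules. Mature cells carry the chemokine receptor *Cxcr2* into the blood, enter injured tissue, and there make cytokines and chemokines that draw in further cells. On a density gradient most circulating neutrophils sink below the mononucleated cells, and those that stay with them are known as low-density neutrophils, a mixture of immature and activated cells described in inflammation, injury, and cancer. Neutrophils that sank were not analysed here, so these values hold for the neutrophils of the mononuclear fraction.

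The 229 cells held 2286044 UMIs in total. A cell held between 828 and 49232 UMIs with a median of 8770, and a median of 1639 genes. Blood T cells, taken from the same library by *Cd3d* and *Cd3e*, had a median of 8875 UMIs over 710 cells and are the background for transcripts that neutrophils make and lymphocytes lack. Comparisons were made with 597 marrow neutrophils that met the same rule and held *Cxcr2* at 0.01% of UMIs or more, with a median of 18874 UMIs, and with 323 tendon neutrophils that met the same rule, with a median of 3915 UMIs. Depth thus differed between the groups, and where groups are compared by the share of cells holding a gene, each cell was thinned to 1000 UMIs unless the share is said to be unthinned. Levels are CPM, the UMIs of a gene summed over a group and scaled by the UMI total of that group.

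The genes of the rule and the markers describe the choice and support nothing. *S100a8* and *S100a9* made up between 5.05% and 53.7% of a blood neutrophil's UMIs, with a median of 30.7%. *Csf3r*, the receptor for granulocyte colony-stimulating factor, was at 1276 CPM, and without thinning 99.1% of the cells held *Cxcr2* and 99.6% held *Retnlg*, a resistin-like gene of mature mouse neutrophils, neither of which the rule used. In blood T cells the unthinned shares were 0.704% for *Cxcr2* and 11.7% for *Retnlg*, the latter at 14.0 CPM against 33936 CPM in the neutrophils. Just inside the threshold on *S100a8* and *S100a9*, the 3 lowest cells were at 5.05%, 5.31%, and 6.31% of UMIs, with 0, 5, and 54 *Retnlg* UMIs. Just outside it, the 3 nearest cells that met every other criterion were at 4.04%, 3.07%, and 2.60%, with 16, 6, and 11 *Retnlg* UMIs and totals of 742, 1009, and 731 UMIs. The threshold fell in a sparse stretch, since 224 of the 454 cells that met the other exclusions lay below it and 217 of these were below 1%.

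**Figure D1:**
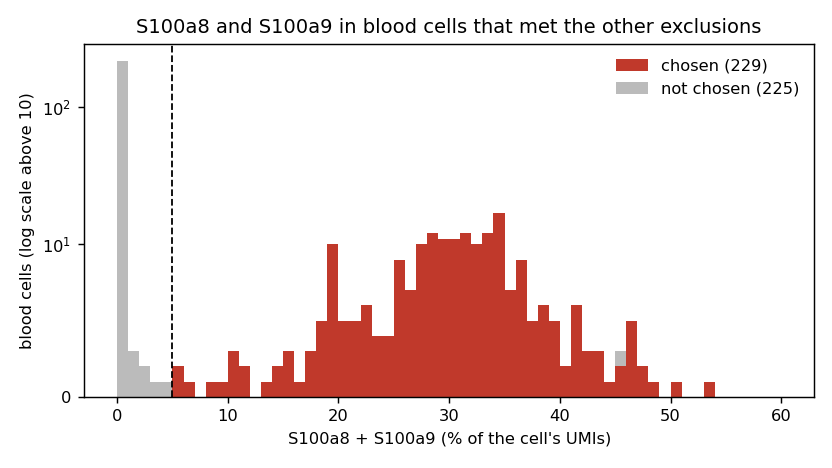
Share of *S100a8* and *S100a9* among the UMIs of a cell (x axis, %) against the number of cells (y axis, log scale above 10), for the 454 blood cells with no *Csf1r* UMI and at most 1 UMI of *Cd3d*, *Cd3e*, and *Cd79a*. The dashed line is the threshold of 5%, which separates the 229 chosen cells, with a median of 30.7%, from 217 cells below 1% and a few between.

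Among the criteria applied after the threshold on *S100a8* and *S100a9*, that on *Csf1r* removed the most cells. *Csf1r* encodes the receptor for macrophage colony-stimulating factor and marks monocytes. Of the 402 blood cells at or above 5% *S100a8* and *S100a9*, 3 lacked *Csf3r*, a further 165 held *Csf1r*, and 5 more exceeded the limit on lymphocyte genes. The share lost to *Csf1r* was 41.4% of the blood cells that reached that step, against 11.4% in marrow and 21.7% in tendon. The 158 blood cells left out for *Csf1r* alone held a median of 1 *Csf1r* UMI, with 100 of them at exactly 1. Levels of the monocyte and neutrophil genes differed in how near they stood to either group. *Cxcr2* was at 1515 CPM in them, 1415 CPM in the chosen cells, and 5.87 CPM in monocytes, and *Ccr2*, the receptor of inflammatory monocytes, was at 60.5, 7.44, and 845 CPM in the same order. *Ms4a6c*, a further monocyte marker, was at 129, 8.31, and 1098 CPM, and *Mki67* at 43.4, 12.2, and 19.3 CPM. Genes of the late granules were lower in them, with *Camp* at 1435 CPM against 4193 CPM in the chosen cells. *Ly6g* and *Retnlg* were lower too, at 513 against 787 CPM and 29019 against 33936 CPM. Other genes described below were as high or higher in them, with *Il1b* at 1244 against 966 CPM and *Wfdc17* at 8131 against 6435 CPM. *Isg15* was at 174 against 168 CPM and *Ifit1* at 58.6 against 39.8 CPM. With these cells kept, the share of neutrophils in blood was 17.7%.

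Markers of other cell types were few. Platelet markers, 10 genes, summed to 5 UMIs over the 229 cells with 7 genes at 0, and erythroid markers, 5 genes, to 3 UMIs. Dendritic cell markers, 6 genes including *Siglech* and *Flt3*, and stromal markers, 5 genes including *Col1a1*, were all at 0, whereas tendon neutrophils carried stromal markers at 112 CPM and platelet markers at 52.8 CPM. Of the 9 monocyte markers other than *Csf1r*, which the rule held at 0, 9 were detected, at 600 CPM in sum against 8342 CPM in blood monocytes, and *Ly6c2* gave 987 of their 1372 UMIs. Natural killer cell markers summed to 164 UMIs, of which 145 lay in 1 cell that also held 582 *Retnlg* UMIs. T cell markers, 7 genes, summed to 20 UMIs, B cell markers, 6 genes, to 5, and basophil markers, 6 genes, to 1. The rule itself capped *Cd3d*, *Cd3e*, and *Cd79a*, which are in the T and B cell sums. Of 5 eosinophil markers, *Siglecf* had 14 UMIs in 13 cells, and *Epx*, *Prg2*, and *Prg3* were at 0. Leaving out the 3 cells with at least 5 UMIs of lymphocyte, natural killer, or monocyte markers other than *Ly6c2*, *Mpeg1*, and *Ctss* left 226 cells, and none of the counts of genes below then moved by more than 1.5 times. The blood library shared 2 barcodes with marrow and 6 with tendon, and 2 of the 229 cells were among them.

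Between blood and marrow, 3338 genes had a mean of at least 20 CPM over both groups. Of these, 459 (13.8%) were at least 2-fold higher in blood neutrophils and 376 (11.3%) at least 2-fold lower, and the median log2 ratio of all genes was 0.05. Among genes with at least 100 UMIs in both groups together and found in 20% or more of the cells where the gene was higher, the one furthest up was *Il1b*, encoding interleukin 1 beta, at 966 CPM in blood, with an interval of 926 to 1007, and at 18.7 CPM in marrow, with an interval of 16.3 to 21.2, a 51.8-fold difference. It was followed by the endotoxin coreceptor *Cd14*, *Igfbp6*, the phosphatase gene *Dusp1*, *Fgl2*, *Prr5l*, *Steap4*, the cytokine signaling inhibitor *Socs3*, *Fos*, and *Cd244*, which were 14.1- to 24.4-fold higher. The genes furthest down were *Nrp1*, *Mlst8*, *Prom1*, *Zmpste24*, the proton channel gene *Hvcn1*, *Mki67*, the fatty acid receptor gene *Ffar2*, *Fcnb*, *Ica1*, and *Chil3*. Several of these rested on few UMIs in blood, with 1 UMI of *Nrp1* and 2 of *Mlst8*, while *Zmpste24* was at 9.19 CPM in blood and 196 CPM in marrow. The counts of genes depended on the marrow cells compared. Against all marrow neutrophils 660 genes were at least 2-fold higher in blood and 894 lower. Against those with *Cxcr2* at 0.02% of UMIs or more, 344 were higher and 188 lower.

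Between blood and tendon, 3290 genes were compared, of which 326 (9.91%) were at least 2-fold higher in blood neutrophils and 520 (15.8%) at least 2-fold lower, with a median log2 ratio of -0.04. By the same minimum, the genes furthest up in blood were *Asb7*, *Ccdc125*, the DNA repair gene *Xpc*, *Mtus1*, the glucocorticoid-induced gene *Tsc22d3*, *Ccdc180*, *Rab3d*, *Apobec1*, *Zbtb7b*, and *Gm26526*. Those furthest down were the chemokine-binding receptor gene *Ccrl2*, *Ccl4*, *Cxcl3*, the cell cycle inhibitor gene *Cdkn1a*, *Ccl3*, the lipid droplet gene *Hilpda*, *Cxcl2*, the adhesion gene *Icam1*, *Tnf*, and *Il1a*. *Ccrl2* had a log2 ratio of -10.39 (-15.69 to -7.91) from 1 UMI in blood against 586 CPM in tendon. *S100a8* and *S100a9* took unequal shares of the 3 groups, and with both left out of the totals the median of all genes moved to -0.14 against marrow and 0.25 against tendon. The counts then became 437 higher and 673 lower against marrow, and 679 higher and 442 lower against tendon. A gene that passed the minimum of 20 CPM through 1 group alone had to differ between groups, so the counts for the lists below describe the genes compared. Among genes at 20 CPM or more in both groups, 307 of 2776 were at least 2-fold higher and 200 lower against marrow, and 196 of 2736 were higher and 306 lower against tendon. Both comparisons use the same blood cells.

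**Figure D2:**
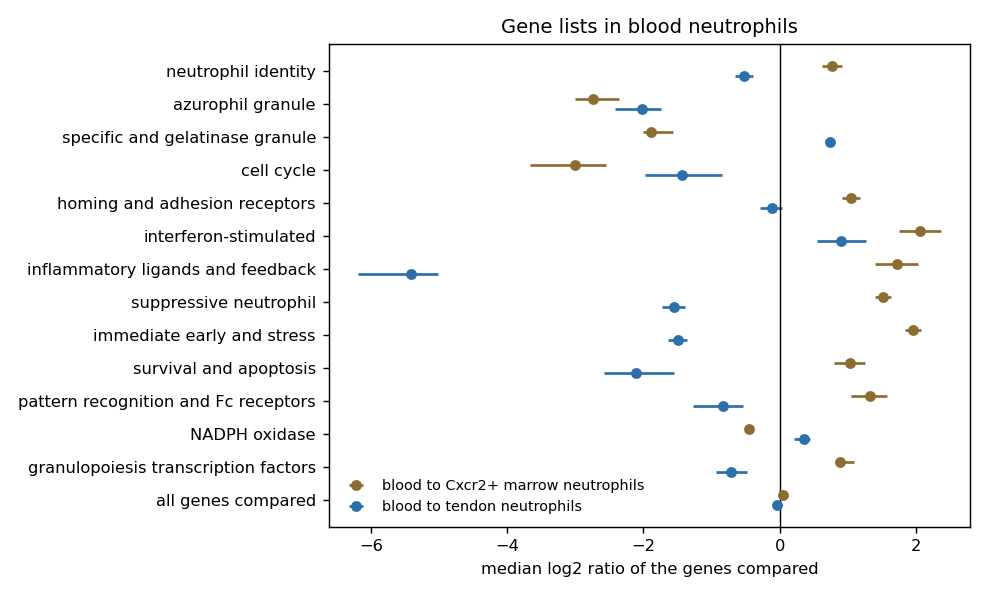
Median log2 ratio (x axis) of the genes compared in each of 13 lists and over all genes, for blood against Cxcr2+ marrow neutrophils and blood against tendon neutrophils, with bars for the median of the genes' counting interval bounds. In blood neutrophils the granule, azurophil, and cell cycle lists lay below marrow and the interferon-stimulated list lay above both tissues, while the inflammatory list lay above marrow and far below tendon.

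Genes of the specific and gelatinase granules were mostly lower in blood than in marrow neutrophils, and some were higher than in tendon. Of 14 genes, all compared with marrow, 10 (71.4%) were at least 2-fold lower and none higher, against 11.3% of all genes, with a median log2 ratio of -1.89. Of the 12 at 20 CPM or more in both groups, 8 were lower, against 200 of 2776 of all genes. The cathelicidin gene *Camp* was at 4193 CPM in blood, 27181 CPM in marrow, and 2707 CPM in tendon. Lactoferrin, encoded by *Ltf*, was at 1338, 7998, and 602 CPM, and *Ngp*, encoding neutrophilic granule protein, at 4768, 28048, and 2735 CPM. All 3 genes thus stood highest in marrow, then blood, then tendon. Their counting intervals did not overlap, but these take no account of how few cells held the UMIs. In blood, *Camp* was in 59 of the 229 cells, *Ltf* in 36, and *Ngp* in 131, so the order of blood and tendon is a description of the sums. The order of blood and tendon for *Camp* turned when the *Csf3r* criterion was dropped from every group, from a log2 ratio of 0.63 to -0.28. Over all settings the log2 ratio to tendon ran from 0.072 to 1.34 for *Ngp* and from 0.86 to 1.52 for *Ltf*. The collagenase gene *Mmp8* was at 1552 CPM in blood, 1807 CPM in marrow, and 687 CPM in tendon, and *Mmp9*, encoding gelatinase B, was at 1817 CPM in blood, 1365 CPM in marrow, and 1332 CPM in tendon. Against tendon, 5 of the 12 genes compared were at least 2-fold higher in blood, against 9.91% of all genes, among them *Lcn2* at 7108 against 3534 CPM, and 1 (8.33%), the sheddase gene *Adam8*, was at least 2-fold lower, at 212 against 594 CPM, where 15.8% of all genes were.

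Transcripts of the earliest granules and of the cell cycle were scarce in blood neutrophils. After thinning, 4.82% of blood neutrophils held a UMI of the azurophil list and 2.19% one of the cell cycle list. These shares were 43.9% and 12.6% in marrow neutrophils, 3.74% and 7.17% in tendon neutrophils, and 23.4% and 30.3% in blood T cells. T cells can express some genes of both lists themselves, such as *Nkg7* and *Stmn1*, so their shares are no background level. Azurophil granule genes, which include the myeloperoxidase gene *Mpo* and the serine protease genes *Elane* and *Prtn3*, were at least 2-fold lower than in marrow for 7 of the 7 genes compared, against 11.3% of all genes. Of the 7, 3 reached 20 CPM in both groups, where 200 of 2776 of all genes were lower. *Mpo* had 2 UMIs in blood, at 0.875 CPM against 57.6 CPM in marrow and 44.1 CPM in tendon, where all 66 UMIs lay in 1 cell. A single cell weighed on both lists. It held 49232 UMIs, 4716 genes, 1700 *Camp* UMIs, and 8 *Retnlg* UMIs, and carried 299 of the 599 azurophil UMIs and 166 of the 251 cell cycle UMIs, including all 78 *Elane* UMIs. *Serpinb1a*, encoding an inhibitor of neutrophil serine proteases, gave 298 of the azurophil UMIs, over 39 cells. Without that cell the azurophil sum went from 262 to 134 CPM and the cell cycle sum from 110 to 38.0 CPM, and the median log2 ratio of azurophil genes to marrow went from -2.74 to -6.90. That median turned to 1.35 when marrow neutrophils were held to *Cxcr2* at 0.02% of UMIs, and the median against tendon turned from -2.02 to 1.91 when 2 *Csf3r* UMIs were required. Against tendon, 4 of 5 azurophil genes compared were at least 2-fold lower, where 15.8% of all genes were. Of the 3 at 20 CPM or more in both groups 2 were lower, against 306 of 2736 of all genes. After thinning, 3.74% of tendon neutrophils held an azurophil UMI and 1 cell held 75.9% of them, so the tendon level rested on 1 cell as well. Cell cycle genes were at least 2-fold lower for 8 of 8 compared with marrow, against 11.3% of all genes, and for 4 of 5 compared with tendon, against 15.8%. In each comparison only 2 of them reached 20 CPM in both groups, and these 2 were lower. Of all such genes, 200 of 2776 were lower than in marrow and 306 of 2736 lower than in tendon. *Mki67*, a proliferation marker, was held by 1 of 228 blood neutrophils after thinning (0.439%) and by 2.62% without it, at 12.2 CPM against 169.9 CPM in marrow and 42.7 CPM in tendon. The transcription factor gene *Cebpe*, which drives granule maturation, was likewise lower than in marrow, at 56.9 against 336 CPM, whereas *Cebpb*, used in emergency granulopoiesis, was higher, at 839 against 216 CPM. Of 8 transcription factors of granulopoiesis compared with marrow, 3 were at least 2-fold higher, against 13.8% of all genes, and 1 was lower, a share near the 11.3% of all genes. Of 9 compared with tendon none was higher and 4 were lower, against 15.8% of all genes. Of the 8 at 20 CPM or more in both groups, 3 were lower, against 306 of 2736 of all genes.

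Receptors for homing and adhesion were often higher in blood than in marrow and mostly within 2-fold of tendon. Of the 17 genes compared with marrow, 9 (52.9%) were at least 2-fold higher, against 13.8% of all genes, and 1 was lower. *Cxcr2* is 1 of the 9, and the marrow cells were themselves chosen on it. *Selplg*, encoding the ligand by which neutrophils roll on vessel walls, was at 849 CPM in blood, 211 CPM in marrow, and 613 CPM in tendon, and the integrin genes *Itgal* and *Itga4* were 3.34- and 3.75-fold above marrow. *Itga4*, the alpha chain of an integrin that binds VCAM1, was also above tendon, at 114 against 52.8 CPM. *Ceacam1* was the gene lower than in marrow, at 68.7 against 217 CPM. *Cxcr4*, the receptor that holds neutrophils in the marrow, was at 114 CPM in blood, 77.4 CPM in marrow, and 114 CPM in tendon, and after thinning 9.21% (5.79 to 13.7) of blood neutrophils, 8.57% of marrow neutrophils, and 4.08% of blood T cells held it. These shares of blood and marrow neutrophils lay within each other's counting intervals, at median depths of 8770 and 18874 UMIs, and the unthinned shares were 55.9% and 73.2%. Against tendon, 2 of 19 genes (10.5%) were at least 2-fold higher in blood and 4 (21.1%) lower, near the 9.91% and 15.8% of all genes, the latter including the platelet-activating factor receptor gene *Ptafr* at 108 against 434 CPM.

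Among 16 genes of neutrophil identity, 6 were at least 2-fold higher in blood than in marrow and none lower, against 13.8% and 11.3% of all genes. Against tendon 4 of the 16 were higher and 5 lower, where 9.91% and 15.8% of all genes were. *Ly6g*, the surface marker used to sort mouse neutrophils, was at 787 CPM in blood, 871 CPM in marrow, and 369 CPM in tendon. *Clec4d*, encoding a C-type lectin, stood lowest in marrow and highest in tendon, at 86.9, 519.7, and 2343 CPM. The decoy interleukin 1 receptor gene *Il1r2* followed the same order at 108, 328, and 2628 CPM, as did the amplifying receptor gene *Trem1* at 40.9, 136, and 1129 CPM. Of 9 pattern recognition and Fc receptor genes compared, 7 were at least 2-fold higher in blood than in marrow, against 13.8% of all genes. Of the 6 at 20 CPM or more in both blood and marrow, 4 were higher, against 307 of 2776 of all genes. Against tendon, 4 of the 9 were at least 2-fold lower, against 15.8% of all genes. The inflammasome sensor gene *Nlrp3* was at 8.4 CPM in marrow, 74.8 CPM in blood, and 1403 CPM in tendon. Subunits of the NADPH oxidase, which makes superoxide, were within 2-fold of both tissues apart from 1. Of 7 oxidase genes only *Cybb*, encoding the catalytic subunit, passed 2-fold, at 238 CPM in blood against 1596 CPM in marrow, and none passed it against tendon. This 1 of 7 (14.3%) is near the 11.3% of all genes lower than in marrow.

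Genes of inflammatory ligands and feedback separated blood from both other sites. The list holds 22 genes, not all of them ligands, with *Nfkbia*, *Tnfaip3*, and *Acod1* among them. Of the 22, 9 could be compared with marrow. Of these 9, 8 (88.9%) were at least 2-fold higher in blood, against 13.8% of all genes. Among those at 20 CPM or more in both groups 3 of 4 were higher, against 307 of 2776 of all genes. After thinning, 60.1% (53.4 to 66.5) of blood neutrophils held an *Il1b* UMI, against 3.03% of marrow neutrophils, 88.8% of tendon neutrophils, 4.83% of blood monocytes, and 0% of blood T cells, where a count of 0 in 710 cells allows up to 0.518%. Unthinned shares were 86.9% in blood, 9.55% in marrow, and 97.8% in tendon neutrophils, 27.2% in blood monocytes, and 1.27% in blood T cells. The limit of 0.518% thus holds for thinned cells only. *Ccl6*, a chemokine gene of myeloid cells, was at 1442 CPM in blood, 178 CPM in marrow, and 1279 CPM in tendon, so that blood was near the tendon level. *Acod1*, encoding the enzyme that makes itaconate, was at 56.0 CPM in blood, 6.14 CPM in marrow, and 2402 CPM in tendon, and was present in 6.14% of thinned blood neutrophils and 80.7% of thinned tendon neutrophils. Against tendon, 17 of the 20 genes compared (85%) were at least 2-fold lower in blood, against 15.8% of all genes. Of the 10 that reached 20 CPM in both groups 7 were lower, against 306 of 2736 of all genes.

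Several chemokines and cytokines that were abundant in tendon neutrophils had few UMIs in blood neutrophils. *Cxcl2*, a ligand of *Cxcr2*, had 111 UMIs in blood, at 48.6 CPM against 16434 CPM in tendon, a 338-fold difference. *Tnf* was at 3.94 CPM against 882 CPM, and *Ccl3* and *Ccl4* had 4 and 5 UMIs in blood against 864 and 1550.2 CPM in tendon. *Tnf* was not more often found in blood than in marrow neutrophils. Its level was below that of marrow, at log2 ratios of -2.61 to -1.65 over the settings tried. After thinning, 0.439% (0.011 to 2.42) of blood and 1.18% (0.474 to 2.41) of marrow neutrophils held *Tnf*. Unthinned, at median depths of 8770 and 18874 UMIs, these shares were 3.49% and 23.8%. *Cxcl3*, *Il1a*, and *Cxcl1* had no UMI in the 229 cells, and with a floor of 3 UMIs over the group they were at least 683-, 221-, and 92.1-fold lower than in tendon. *Il1b* was 5.64-fold under tendon, and *Osm*, encoding oncostatin M, and *Il1f9*, encoding an interleukin 36, were within 2-fold of it, at 45.9 against 54.1 CPM and 284 against 317 CPM. Genes of NF-kappa B feedback were low too: *Nfkbia* was at 143 CPM in blood, 167 CPM in marrow, and 4640.4 CPM in tendon, and *Tnfaip3* at 3.06 CPM in blood and 490.2 CPM in tendon.

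**Figure D3:**
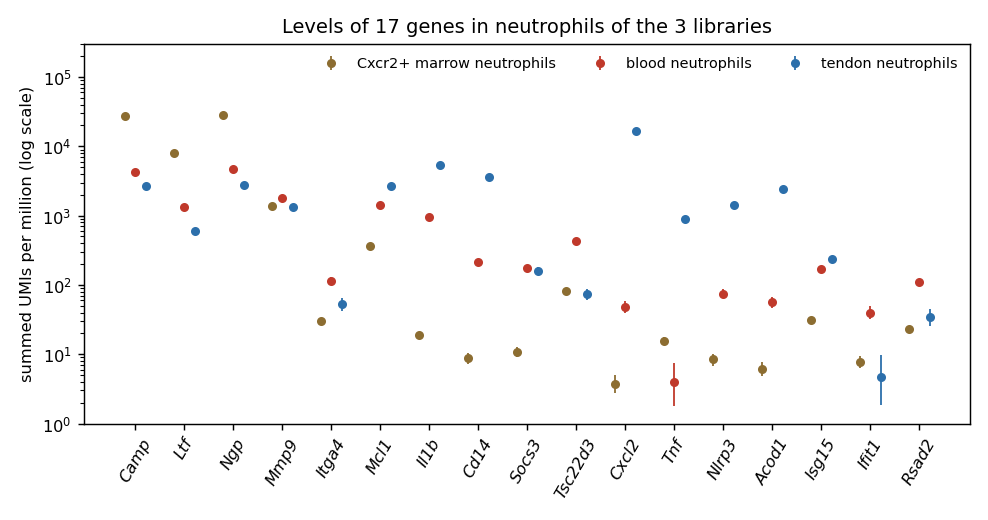
Summed UMIs as CPM (y axis, log scale) of 17 genes in Cxcr2+ marrow, blood, and tendon neutrophils, 1 library each, with exact Poisson 95% intervals that are often smaller than the point. *Camp*, *Ltf*, and *Ngp* are highest in marrow and lowest in tendon, *Il1b*, *Cd14*, and *Nlrp3* are in the opposite order, *Cxcl2* and *Tnf* are high in tendon alone, and *Tsc22d3* and *Rsad2* are highest in blood.

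Immediate early genes, which respond to stimulation within minutes, were split. Of 11 compared with marrow, 8 (72.7%) were at least 2-fold higher in blood, against 13.8% of all genes. Of the 9 at 20 CPM or more in both groups, 6 were higher, against 307 of 2776 of all genes. *Dusp1* was at 694 CPM in blood against 34.6 CPM in marrow, *Junb* at 626 against 89.6 CPM, and *Fos* at 275 against 17.7 CPM, the last under 20 CPM in marrow. *Dusp1*, *Fos*, and *Klf2* were in blood at levels near or above tendon, with *Klf2* at 765 and 755 CPM and *Fos* at 174 CPM in tendon. *Egr1*, *Atf3*, and *Nr4a1* were much lower in blood than in tendon, at 14.0 against 328, 5.25 against 109.5, and 2.62 against 80.8 CPM. In all, 8 of 15 genes of this list were at least 2-fold lower than in tendon, against 15.8% of all genes, and none higher. Among those at 20 CPM or more in both groups 4 of 11 were lower, against 306 of 2736 of all genes. *Tsc22d3*, encoding the leucine zipper protein GILZ that glucocorticoids induce, was higher in blood than in either other tissue, at 425 CPM (398 to 452) against 81.2 CPM in marrow and 72.8 CPM in tendon. In blood monocytes of the same library it was at 197 CPM.

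Genes linked to suppressive neutrophils were partly present. Of 9 compared with marrow, 6 were at least 2-fold higher and 1 lower, against 13.8% and 11.3% of all genes. Of the 8 at 20 CPM or more in both groups, 5 were higher and 1 lower, against 307 and 200 of 2776 of all genes. Of 13 compared with tendon, 2 were higher and 7 lower, against 9.91% and 15.8%. Of the 9 at 20 CPM or more in both groups 2 were higher and 3 lower, against 196 and 306 of 2736 of all genes. *Wfdc17*, a whey acidic protein gene, was at 6435 CPM in blood and 6696 CPM in tendon against 554 CPM in marrow, and *Ifitm1* was at 4440.4, 7183, and 401 CPM. *Cd84*, named as a marker of suppressive neutrophils, was highest in blood, at 356 CPM against 125 and 169 CPM. Other genes of this list were low: *Il10*, encoding interleukin 10, had no UMI, and *Nos2*, *Cd274*, and *Olr1* had 13, 15, and 7 UMIs in all blood neutrophils, at 5.69, 6.56, and 3.06 CPM. *Anxa1*, encoding the anti-inflammatory protein annexin A1, was at 2065 CPM in blood, between 4255 CPM in marrow and 892 CPM in tendon.

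Several survival genes stood lowest in marrow and highest in tendon. *Mcl1*, the BCL2 family member on which neutrophil survival depends, was at 364 CPM in marrow, 1444 CPM in blood, and 2662 CPM in tendon. The kinase gene *Pim1* followed the same order at 86.0, 196, and 1069 CPM. Of 8 genes compared with marrow, 4 were at least 2-fold higher in blood, against 13.8% of all genes, and none lower. Of the 7 at 20 CPM or more in both groups, 3 were higher, against 307 of 2776 of all genes. Of 11 compared with tendon, 8 were lower, against 15.8% of all genes, and 1 (9.09%), the proapoptotic gene *Bid*, was higher, near the 9.91% of all genes. Among those at 20 CPM or more in both groups 6 of 9 were lower, against 306 of 2736 of all genes. The proapoptotic gene *Bcl2l11* was at 24.5 CPM in blood and 493 CPM in tendon. *Bcl2a1b* had 5 UMIs in blood against 261 CPM in tendon, but the *Bcl2a1* genes are near-identical copies, so how reads were divided among them is uncertain.

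Many interferon-stimulated genes were higher in blood neutrophils than in either other group. Of 31 genes, 17 could be compared with marrow, and 13 of these (76.5%) were at least 2-fold higher in blood and none lower, against 13.8% of all genes, with a median log2 ratio of 2.06. Among those at 20 CPM or more in both groups, 7 of 11 were higher, against 307 of 2776 of all genes. Of 17 compared with tendon, 8 (47.1%) were at least 2-fold higher and none lower, against 9.91% of all genes, with a median of 0.90, and 5 of the 14 at 20 CPM or more in both groups were higher, against 196 of 2736 of all genes. *Oasl2*, an oligoadenylate synthetase-like gene, was at 212 CPM in blood, 27.3 CPM in marrow, and 78.8 CPM in tendon. The antiviral gene *Rsad2* was at 108, 23.0, and 34.1 CPM, and the transcription factor gene *Irf7* at 69.1, 16.6, and 34.1 CPM. *Isg15*, a ubiquitin-like modifier, was not above tendon, at 168 CPM in blood, 31.3 CPM in marrow, and 233 CPM in tendon. *Ifit1* and *Ifit3*, members of an RNA-binding family, had 91 and 68 UMIs in blood neutrophils, at 39.8 and 29.7 CPM, against 7.75 and 3.31 CPM in marrow and 4.68 and 4.01 CPM in tendon, and *Ifit3* was under the mean of 20 CPM in both comparisons. *Ifit3* and *Ifit3b* are near-identical copies, so the division of reads between them is uncertain.

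These transcripts were unevenly spread over the cells. After thinning to 1000 UMIs, a blood neutrophil held a median of 1.5 UMIs of the list and at most 27. At least 3 UMIs were found in 36.8% (30.6 to 43.5) of blood neutrophils, 8.57% of marrow neutrophils, 16.2% of tendon neutrophils, 23.4% of blood monocytes, and 15.5% of blood T cells. At least 5 UMIs were found in 17.1% of blood neutrophils, and these 39 cells held 52.1% of the list's UMIs. Blood T cells also respond to interferon, so their share is a level in another cell type and no measure of free RNA.

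**Figure D4:**
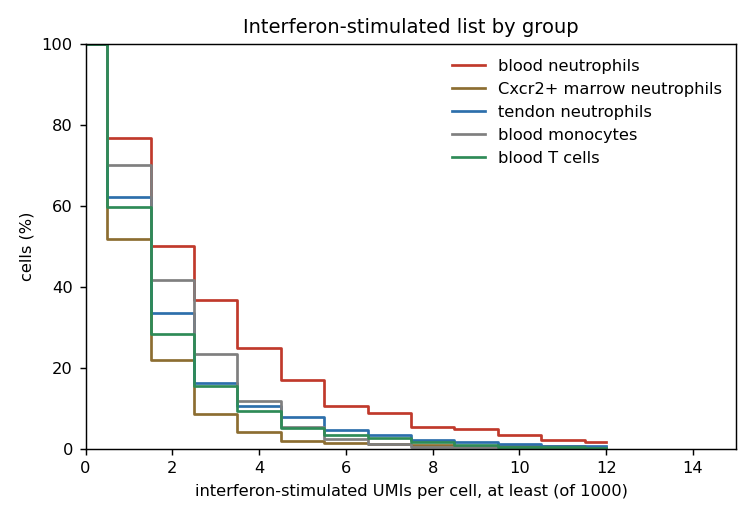
Percent of cells (y axis) with at least a given number of interferon-stimulated UMIs (x axis) after thinning to 1000 UMIs per cell, in blood neutrophils, Cxcr2+ marrow neutrophils, tendon neutrophils, blood monocytes, and blood T cells. The line for blood neutrophils lies above the others, at 36.8% for 3 UMIs against 8.57% in marrow and 16.2% in tendon neutrophils.

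The sequences before the start sites of *Ifit3*, *Ifit1*, *Rsad2*, and *Slfn5*, which were among the leading genes of the cells richest in these transcripts, are shown because they hold letters of the interferon-stimulated response element, the kind of site bound by the factors that interferon activates. The letters searched were GAAA, any 2 bases, and GAAA again, on both strands, in RefSeq windows of GRCm38.p6 from 250 bases before to 50 after each start, and matches are in capitals. *Cmpk2*, *Herc6*, and *Oasl1*, also leading genes of those cells and on the list, had a window without a match and are not shown. Each sequence reads 5′ to 3′ on the strand of the gene.
Ifit3: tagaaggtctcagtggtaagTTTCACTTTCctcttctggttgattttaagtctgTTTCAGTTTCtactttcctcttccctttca
Ifit1: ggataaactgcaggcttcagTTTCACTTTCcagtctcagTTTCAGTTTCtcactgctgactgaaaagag
Rsad2: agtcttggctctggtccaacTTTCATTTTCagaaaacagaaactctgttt
Slfn5: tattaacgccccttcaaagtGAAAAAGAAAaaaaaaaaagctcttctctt
The stretch of *Ifit3* lies at chr19:34583353-34583436 on the plus strand with 2 matches, that of *Ifit1* at chr19:34640765-34640833 on the plus strand with 2, that of *Rsad2* at chr12:26456543-26456592 on the minus strand with 1, and that of *Slfn5* at chr11:82951927-82951976 on the plus strand with 1. In the gene annotation, *Ifit1* (ENSMUSG00000034459) spans chr19:34640871-34650009 and *Rsad2* (ENSMUSG00000020641) chr12:26442746-26456452. Of the 24 interferon-stimulated genes with a window in the table, 14 (58.3%) held a match, against 1079 of 27025 genes (3.99%) overall. Of 18 inflammatory genes with a window, 3 (16.7%) held it. The kappa B letters, GGGA, any base, and TTTCC, searched the same way, were in 5 (27.8%) of the inflammatory genes, in none of the 24 interferon-stimulated genes, and in 0.466% of all genes. A match describes the letters and is not a measured binding site.

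The blood neutrophils varied among themselves along the same gene groups. Clustering of the 229 cells gave 3 clusters, which are descriptions since the same counts made them. The largest, 134 cells (58.5%), had no sharply marked genes and was led by *Zeb2*, *Pde4b*, and *Prr5l*. A second of 54 cells (23.6%) was led by *Camp*, *Ltf*, and *Ngp*, and another of 41 cells (17.9%) by *Ifit3*, *Ifit1*, and *Ifit3b*. Their median depths were 7439, 14653, and 8297 UMIs, so the *Camp*/*Ltf* cells were also the deepest, and the part of depth in these clusters was not tested. *Camp* was at 10722 CPM in the *Camp*/*Ltf* cluster, 18.4 CPM in the largest, and 13.9 CPM in the *Ifit3*/*Ifit1* cluster, so that the first held 99.7% of all *Camp* UMIs of blood neutrophils. These UMIs were uneven within the *Camp*/*Ltf* cluster. Unthinned, 85.2% of its cells held *Camp* and 57.4% held *Ltf*, and 1 cell held 1700 of the 9585 *Camp* UMIs. After thinning, its cells ran from 0 to 101 UMIs of *Camp*, *Ltf*, and *Ngp*. *Lcn2* was more widely spread, at 13008, 3142, and 3889 CPM in the same order. *Il1b* was at 230 CPM in the *Camp*/*Ltf* cluster against 1467 CPM in the largest and 1352 CPM in the *Ifit3*/*Ifit1* cluster, and *Cxcr2* at 861 against 1746 and 1835 CPM. *Retnlg* was near one level in all 3, at 34938, 32240, and 36320 CPM.

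In the *Ifit3*/*Ifit1* cluster *Isg15* was at 530 CPM and held by 80.5% of unthinned cells, against 114 CPM and 35.1% in the largest cluster. *Rsad2* was at 452 CPM against 52.2 CPM in the largest cluster and 34.8 CPM in the *Camp*/*Ltf* cluster. The median mitochondrial share was 0.680% in this cluster and 0.650% in the largest. Over 228 thinned cells, UMIs of the specific and gelatinase granule list and of the inflammatory list had a Spearman correlation of -0.52, granule and interferon-stimulated UMIs -0.36, and inflammatory and interferon-stimulated UMIs 0.36. The cells share 1 library and each sums to 1000 UMIs, so a high granule count leaves less room for other genes. The *Camp*/*Ltf* cells numbered 31 to 47 under 5 other settings of the clustering. The *Ifit3*/*Ifit1* cells numbered 39 to 41 under 3 of these, and were not separated at a resolution of 0.2. With 2000 variable genes, 33 of the 41 lay in a cluster of 130 cells.

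**Figure D5:**
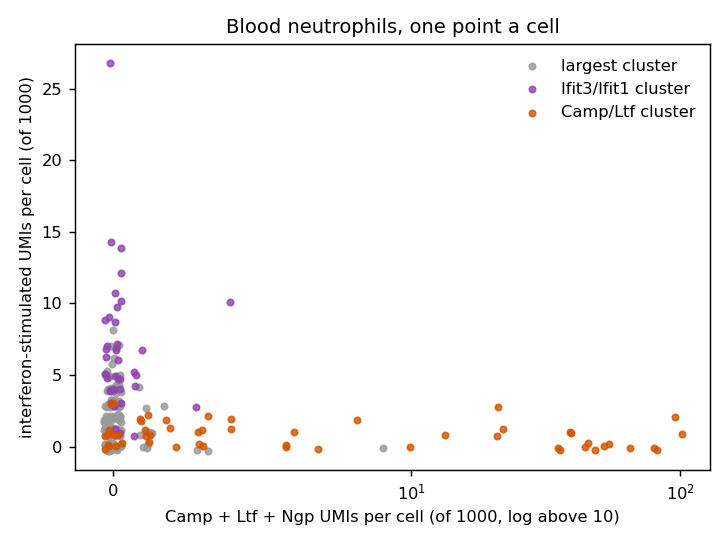
UMIs of *Camp*, *Ltf*, and *Ngp* (x axis, log scale above 10) against UMIs of the interferon-stimulated list (y axis) in 228 blood neutrophils thinned to 1000 UMIs, 1 point a cell with a small random offset, colored by cluster. Cells high on one axis are low on the other, with at most 27 interferon-stimulated UMIs in a cell.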

How the data were processed

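Single-cell RNA sequencing libraries of bone marrow, blood, and tendon injury site were made with 10x Genomics 3′ chemistry. The authors deposited filtered matrices of raw UMI counts per gene and cell barcode, with Cell Ranger 5.0.1 named in their headers and mm10 in the submitters' processing notes. Groups came from the GEO labels, with 1 library a tissue. Cells were kept with at least 200 genes and at most 20% mitochondrial UMIs. Counts were summed over the cells of a group and divided by the group total (CPM). Genes with a mean of at least 20 CPM over the 2 groups were compared, and at least 2-fold was the call. Intervals are exact Poisson for CPM, exact binomial for the split of UMIs behind a ratio, and Clopper-Pearson for shares. PCR duplicates were collapsed by UMI. A zero was given a floor of 3 counts over the group.

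Named genes were the members of the fixed lists and the 10 genes furthest up and the 10 furthest down in each comparison, by log2 ratio. Members and lists were chosen with earlier results of these data known, and examples within lists were picked after their values were seen. Of the list entries, 8 were not found under the symbols searched and were not analysed here. Clusters used Scanpy 1.11.5. No doublet caller was used in the choice of cells, and Scrublet was an alternative. Scripts were tested on simulated data. Software was Python 3.11.15, numpy 2.4.6, scipy 1.17.1, pandas 2.3.3, and matplotlib 3.10.9. Gene positions are from GENCODE M21 (GRCm38), matched by Ensembl ID for 292 of 292 named genes, and promoter sequences are from RefSeq (GRCm38.p6). There were 18 alternatives fixed at the start and 4 chosen after seeing the data.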

Additional observations from a re-analysis of the deposited data

How the results depend on the processing

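With 1 library a tissue no replicate could be left out, and no paired analysis was possible because no group had replicates. Over the alternatives, 142 of 181 main values stayed within their counting interval, or within 1.5 times for counts, and 39 did not. The share of neutrophils in blood was 15.1% with 1 *Csf1r* UMI allowed and 17.7% with no *Csf1r* criterion, an alternative chosen after seeing the data. With *S100a8* and *S100a9* left out of the totals, 673 genes were lower than in marrow and 679 higher than in tendon. With a minimum of 5 CPM, 723 genes were higher and 1013 lower than in marrow, and 780 higher and 997 lower than in tendon, and with 100 CPM these counts were 153, 76, 71, and 191. Against all marrow neutrophils 894 genes were lower, and against those with *Cxcr2* at 0.02% of UMIs 188. The granule list's median log2 ratio to marrow was -2.04 without *S100a8* and *S100a9*, -2.51 with cells weighted equally, -1.23 at 100 CPM, -1.53 against all marrow neutrophils, -1.49 at 0.02% *Cxcr2*, and -2.02 with no *Csf1r* criterion. Its ratio to tendon was 0.60 at 10% *S100a8* and *S100a9*, 0.54 with no *Csf3r* criterion, 0.89 with 2 *Csf3r* UMIs, 0.61 with 1 *Csf1r* UMI allowed, 0.93 without *S100a8* and *S100a9*, 1.09 with cells weighted equally, and 0.65 at 5 CPM. The interferon-stimulated median to marrow was 1.68 without *S100a8* and *S100a9*, 1.69 at 5 CPM, 1.70 at 100 CPM, and 2.43 against all marrow neutrophils, and to tendon it was 1.41, 1.29, and 0.45 under the first 3 of these. The inflammatory median to marrow was 2.22, 1.33, 2.16, and 2.29 in the same order, and to tendon it was -6.25 at 100 CPM. Directions turned for *Dusp1* to tendon, at 0.061 with 10% *S100a8* and *S100a9* and 0.12 without these genes, and for *Wfdc17* to tendon, at 0.052 with no *Csf3r* criterion, 0.069 with 1 *Csf1r* UMI allowed, 0.20 without *S100a8* and *S100a9*, 0.11 with cells weighted equally, and 0.14 with no *Csf1r* criterion. They turned for *Camp* to tendon, at -0.28 with no *Csf3r* criterion, and for the azurophil median, at 1.91 to tendon with 2 *Csf3r* UMIs and 1.35 to marrow at 0.02% *Cxcr2*. Against all marrow neutrophils *Mmp8*, *Ly6g*, and *Itgam* turned to 0.65, 0.50, and 0.085. The cause of these changes was not tested. Of the other values, 345 of 1582 moved beyond their interval without being counted as turned. Of 24 thinned shares recomputed, 14 moved beyond theirs, since a share depends on the UMIs kept. The *Il1b* share was 36.2% at 500 UMIs and 70.0% at 2000, that of *Isg15* 8.73% and 25.1%, and that of *Cxcr4* 4.80% and 25.6%, while another random seed moved none of the 6 genes' shares beyond its interval.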
